A study of Rattus norvegicus with 2 samples.

Results

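Genes for the receptors of glutamate, GABA and glycine were examined in fetal rat skin. The members were taken by name from both arrays, as all non-control probes whose gene name begins with one of the usual stems of these families: Gria, Grik, Grin and Grid (ionotropic glutamate receptors), Grm (metabotropic glutamate receptors), Gabra to Gabrr (GABA-A and GABA-rho receptors), Gabbr (GABA-B receptors), and Glra and Glrb (glycine receptors). This gave 51 gene names of the 18346 on the array, measured by 63 probes on 153 spots of each array. One of the 51 encodes a receptor partner and was caught by the stem, so 50 are receptor subunits. The E19 group was a pool of 3 samples of skin from Sprague Dawley fetuses at day 18.5, and the E16 group a pool of 4 such samples at day 16.5. Both pools were hybridised together to 2 arrays of 45018 spots with exchanged dyes. E19 carried Cy5 on one of them and Cy3 on the other. Each stage is therefore 1 pool measured on both arrays. The ± values are the SD of both measurements, a technical error, and no p-value can be given for the stages.

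Glutamate is the main excitatory transmitter of the central nervous system, while GABA and glycine are the main inhibitory ones in the mature system. AMPA, kainate and NMDA receptors are tetrameric cation channels, GABA-A and glycine receptors are pentameric chloride channels, and metabotropic glutamate and GABA-B receptors signal through G proteins. Neurons are their best known site, including the sensory neurons whose axons reach the skin. Sensory cell bodies lie in ganglia outside the skin, and some receptor subunits have also been described in epithelial and pigment cells.

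Levels are normalised intensities on the log2 scale, and ratios are log2 of E19 over E16. A gene counted as detected where its probe was well above background, by the scanner software's own flag, in at least 1 pool on both arrays. It was called where the ratio was at least 2-fold in the same direction on both arrays. For called genes, a lack of overlap between the stages follows largely from that rule and is no further evidence. The stretch around the gene start is shown for the 4 called members that have an entry in the RefSeq promoter table and whose E19 signal was well above background on at least 1 array. The letters are those of RefSeq. Each runs 5′ to 3′ from 250 bases before to 50 bases after the annotated start, on build GRCr8. Capitals mark matches, on either strand, to 2 motifs that do not overlap each other. The GC box is GGGCGG, and the TATA element is searched as the letters TATAAA.
Gabbr2: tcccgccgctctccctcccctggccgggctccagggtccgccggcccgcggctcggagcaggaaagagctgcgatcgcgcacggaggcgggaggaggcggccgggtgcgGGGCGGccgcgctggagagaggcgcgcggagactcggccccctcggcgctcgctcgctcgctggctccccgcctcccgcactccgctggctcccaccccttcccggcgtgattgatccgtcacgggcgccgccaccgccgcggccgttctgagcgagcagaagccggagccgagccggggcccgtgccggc
Glra2: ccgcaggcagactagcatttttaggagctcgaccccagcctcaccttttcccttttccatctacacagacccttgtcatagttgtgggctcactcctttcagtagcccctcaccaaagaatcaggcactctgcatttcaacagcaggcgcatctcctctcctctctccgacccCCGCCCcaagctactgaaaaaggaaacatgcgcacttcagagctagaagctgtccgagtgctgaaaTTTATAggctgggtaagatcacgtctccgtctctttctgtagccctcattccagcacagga
Grik2: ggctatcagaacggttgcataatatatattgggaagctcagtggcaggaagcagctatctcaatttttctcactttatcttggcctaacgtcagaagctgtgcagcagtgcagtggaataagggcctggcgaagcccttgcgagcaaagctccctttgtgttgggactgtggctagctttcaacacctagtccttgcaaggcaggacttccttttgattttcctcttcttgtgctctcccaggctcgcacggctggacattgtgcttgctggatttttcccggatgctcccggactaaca
Grin1: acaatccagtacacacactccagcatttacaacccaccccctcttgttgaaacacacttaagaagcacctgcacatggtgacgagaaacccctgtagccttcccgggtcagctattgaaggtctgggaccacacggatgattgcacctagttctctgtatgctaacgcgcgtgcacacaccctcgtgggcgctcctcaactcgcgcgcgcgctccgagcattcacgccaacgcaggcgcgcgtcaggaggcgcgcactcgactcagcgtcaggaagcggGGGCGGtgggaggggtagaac
Gabbr2 is at chr5:66083646-66083945 on the minus strand, Glra2 at chrX:32651937-32652236 on the plus strand, Grik2 at chr20:54415234-54415533 on the minus strand and Grin1 at chr3:28528705-28529004 on the minus strand. The Gabbr2 stretch has a GC content of 78.67% and 47 CpG dinucleotides, against 50.33% and 8 for Grik2, which holds neither motif. Over 33469 windows of this table the median GC content was 51.67% and the median CpG count 7. The 35 windows of the 34 members with an entry had medians of 59.67% and 11. The GC box letters occurred in 16 of these 34 genes (47.1%) and in 33.1% of all windows. The TATA letters occurred in 3 of the 34 genes, among them Glra2, and in 14.2% of all windows.

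Receptor genes called between the stages lay in 1 direction. Of the 51 members, 34 were detected, 16 were not and 1, Grin2d, had no value on 1 array. Among the 34, 0 were past 2-fold on both arrays towards E19 and 9 towards E16. The 9 included the glutamate receptor genes Gria2, Grik2, Grik1, Grin1 and Grm8, the GABA receptor gene Gabbr2 and the glycine receptor gene Glra2. Over all 14790 detected genes, 4.14% were called higher in E19 and 3.75% were called higher in E16. The median ratio was -0.74 over the detected members, with a range of -3.33 to 0.38, and 0.02 over all detected genes. Both arrays were below 0 for 29 of the 34 members, against 36.6% of all detected genes, and both were above 0 for 2, Gabrp and Grin3b.

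Detection itself differed by stage, and that bears on these counts. In 20 of the 34 members both pools were well above background on both arrays. In 0 only the E19 pool was, and in 11 only the E16 pool. The shares over all detected genes were 0.892% for E19 only and 1.56% for E16 only. In the other 3 members, among them Gabrb1 and Glra2, E19 was well above background on 1 of 2 arrays and E16 on both. The 14 without full E19 detection passed only through their E16 signal, which favours a higher value in E16, so the direction of the count is partly built in. Where E19 was not above background a printed ratio uses its measured signal and enters the medians, but only the bound given with it holds. The bound takes E19 at that signal, or at the lowest signal well above background if that is higher. It is not a detection limit, and for Grik1, Grm8, Gabra5, Gabrg1 and Glra1 it equals the printed ratio. Among the 20 measured in both pools, 0 were called higher in E19 and 3 higher in E16 (Gabbr2, Grik2 and Grin1), against 4.23% and 3.43% of the 14064 genes measured in both pools. Their median was -0.32, with 15 below 0 on both arrays, 2 above 0 on both and 3 with opposite signs. With every member that had a value on both arrays included, detected or not, the median over 50 was -0.35.

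**Figure D1:**
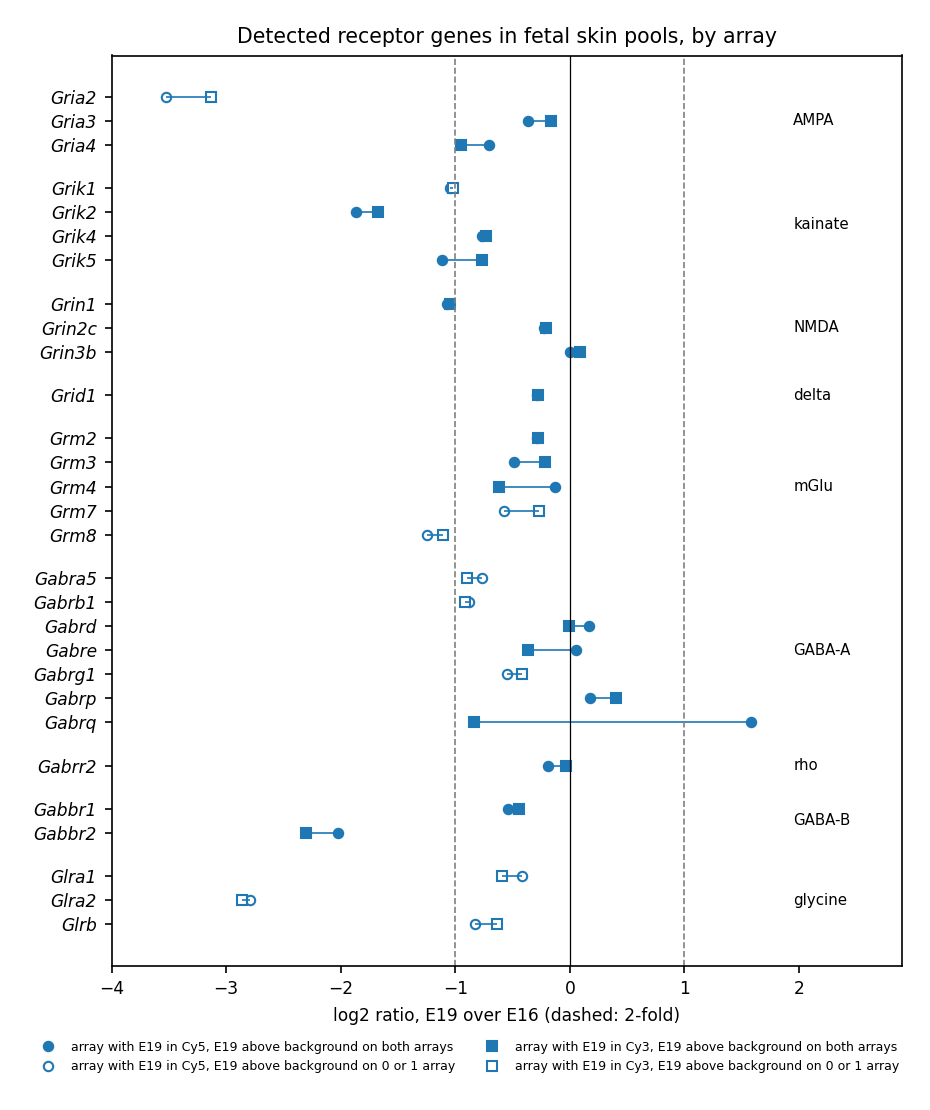
Log2 ratio of E19 over E16 for 29 of the detected receptor genes, grouped by receptor class, with circles for the array with E19 in Cy5 and squares for the array with E19 in Cy3. Open symbols mark genes well above background in E19 on 0 or 1 array, and 7 of the genes drawn lie left of the dashed 2-fold line on both arrays.

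AMPA receptors carry most fast excitatory transmission, and 3 of 4 of their subunit genes were detected. Gria2 encodes the subunit that makes the channel nearly impermeable to calcium. Its level was 6.15 and 6.86 in E19 and 9.67 and 9.99 in E16, given here and below for the array with E19 in Cy5 and then the other, and the stages did not overlap. The ratios were -3.53 and -3.13, with a mean of -3.33 ± 0.28, the lowest of all members. Because E19 was not well above background on either array, only a bound holds, and Gria2 was at least 9.42-fold lower in E19. A second Gria2 probe, printed on 10 spots per array, was also above background only in E16, with a mean of -2.56 and a bound of at least 5.79-fold. On the array with E19 in Cy5 its spots ran from -2.84 to -2.42 with a median of -2.65. On the other array 7 spots were kept, from -2.68 to -2.39 with a median of -2.45. Every kept spot was thus past 2-fold.

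The other AMPA subunits differed less. Gria4, a subunit of fast channels, was at 7.12 and 7.17 in E19 and 7.83 and 8.12 in E16, a mean ratio of -0.83 ± 0.17, with no overlap. Its second probe was at -0.98. Gria3 had a ratio of -0.26, and Gria1, long the best studied subunit in hippocampal plasticity, was not detected in either pool over its 9 kept spots per array.

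Kainate receptor genes were detected for 4 of 5 subunits. Grik2 (GluK2), a pore-forming subunit that can form channels alone, was at 6.82 and 7.12 in E19 and 8.69 and 8.79 in E16. The stages did not overlap, and Grik2 was 3.41-fold lower in E19 (-1.77 ± 0.14). Grik1 (GluK1), a pore-forming subunit known from sensory neurons of the dorsal root ganglia, was at 6.39 and 6.56 in E19 and 7.44 and 7.58 in E16. It was well above background only in E16, at least 2.05-fold lower in E19, with ratios of -1.05 and -1.02. Grik5 (GluK5), which needs a pore-forming partner, was at 9.72 and 9.99 in E19 and 10.84 and 10.75 in E16. Grik5 was past 2-fold on the array with E19 in Cy5 (-1.11) but not on the other (-0.76), so it was not called. Grik4, the other subunit of this kind, was at -0.75 ± 0.03. Grik3 was well above background in each pool on 1 array and did not count as detected.

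NMDA receptors need the obligatory subunit GluN1, encoded by Grin1, together with GluN2 or GluN3 subunits. Grin1 was at 8.32 and 8.48 in E19 and 9.39 and 9.52 in E16, with both pools above background. There was no overlap, and Grin1 was 2.09-fold lower in E19 (-1.06 ± 0.02), close to the 2-fold limit. With E19 in Cy5 all 10 spots passed 2-fold (-1.14 to -1.01), and 8 of 10 on the other (-1.13 to -0.98). A second Grin1 probe was above background only in E16, with a bound of at least 1.57-fold, and Grin1 was not called with the mean over its probes. With median centring in place of loess, Grin1 and Grik1 fell short of the call.

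The partners of GluN1 differed in detection. Grin2a and Grin2b, the main forebrain GluN2 genes, were not detected, and Grin2a was on 2 probes. Grin2c, above background in both pools, was at -0.22. Grin3b, a GluN3 gene known from motor neurons, was at 8.27 and 8.32 in E19 and 8.27 and 8.23 in E16, so the values of the stages lay next to each other. Grin2d, the GluN2 gene known for its high level in the embryonic brain, was at 12.36 in E19 and 12.06 in E16 on the array with E19 in Cy5. Its spot on the other array was marked as an outlier. With outlier spots kept its ratios were 0.30 and -0.47, of opposite sign. Grin3a was above background only in E16 and on 1 array, so it was not detected.

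The delta receptors resemble the channels above in sequence but act as synaptic organisers that bind cerebellins. Grid1, one of them, was at -0.28 on the mean of both arrays.

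Metabotropic glutamate receptors were detected for 6 of 8 genes, all below 0 on both arrays. Grm8, a presynaptic receptor that inhibits adenylyl cyclase, was at 6.49 and 6.87 in E19 and 7.74 and 7.97 in E16. The stages did not overlap. It was above background only in E16 and at least 2.26-fold lower in E19 (-1.17 ± 0.10), and a second probe had a bound of 2.60-fold.

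The remaining metabotropic genes reported here were closer between stages. Grm2, a presynaptic receptor, was at 10.22 and 10.55 in E19 and 10.50 and 10.83 in E16, so the ranges overlapped although the ratio was -0.28 on each array. Grm3, which astrocytes as well as neurons express in the brain, was at 8.93 and 9.22 in E19 and 9.42 and 9.43 in E16 (-0.35 ± 0.19). Grm4 was at 8.28 and 8.00 in E19 and 8.41 and 8.62 in E16 (-0.38 ± 0.35). For both of these genes E16 was the higher on each array. Grm7, above background only in E16, was at 6.32 and 6.55 in E19 and 6.90 and 6.82 in E16, at least 1.34-fold lower in E19. Grm5 and Grm6 were not detected.

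GABA-A receptors usually combine alpha, beta and gamma subunits, and 10 of their 15 genes were detected. Gabra5, an alpha subunit, was at 6.47 and 6.47 in E19 and 7.23 and 7.37 in E16, above background only in E16 and at least 1.78-fold lower in E19. Gabrg1 was at 6.40 and 6.55 in E19 and 6.94 and 6.96 in E16, again above background only in E16, with a bound of 1.40-fold. In both genes the E16 values lay above both E19 values. Passing the filter through the E16 signal alone favours this, so it is no further evidence.

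Gabrb1, a beta subunit, was just short of the call at -0.88 and -0.91, with E19 above background on 1 of 2 arrays.

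Subunits outside the common alpha, beta and gamma set were also measured, and none of those named next was called. Gabrd, the delta subunit of receptors outside the synapse, was at 8.59 and 8.40 in E19 and 8.42 and 8.41 in E16, and the stages overlapped. Gabrp, the pi subunit, known from epithelial tissues such as the uterus, was at 0.18 and 0.41, above 0 on both arrays and short of 2-fold. Gabre, the epsilon subunit, was at 8.22 and 6.97 in E19 and 8.17 and 7.33 in E16, so the arrays differed more than the stages. A second Gabre probe was below 0 on both arrays (-0.08 and -0.55). Gabrq, the theta subunit, was at 14.13 and 13.00 in E19 and 12.55 and 13.84 in E16. Whichever pool carried Cy5 was the brighter for Gabrq, with ratios of 1.58 and -0.83, and no direction can be given. The GABA-rho gene Gabrr2, known from the retina, was at -0.19 and -0.03.

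Undetected GABA receptor genes were Gabra3, Gabra4, Gabra6, Gabrb2, Gabrg3, Gabrr1 and Gabrr3. Of all 16 undetected members, 10 were not above background on any array in either pool. E16 alone was above background on 1 array for 4, Gabra3, Gabrr1, Grin3a and Grm6. For Gabrb2 it was E19 alone on 1 array, and for Grik3 each pool on 1. Ratios of the 16 lay between -0.65 and 0.07, which for probes this dim sets no limit on the change.

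GABA-B receptors work only as a pair of GABBR1, which binds GABA, and GABBR2, which couples to the G protein and brings the pair to the cell surface. Gabbr2 was at 7.59 and 7.35 in E19 and 9.61 and 9.66 in E16, above background in both pools. The stages did not overlap, and Gabbr2 was 4.48-fold lower in E19 (-2.16 ± 0.20). Its stretch was the most CpG-rich of the 4 shown above. Gabbr1 was at 10.20 and 10.39 in E19 and 10.74 and 10.83 in E16, without overlap, and 1.40-fold lower in E19 (-0.49 ± 0.07) over 10 spots that ran from -0.65 to -0.45 on the array with E19 in Cy5. A second Gabbr1 probe was at -0.10. The 2 obligatory partners therefore differed between the stages by unequal amounts on these probes.

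Glycine receptors are chloride channels of alpha subunits with the beta subunit, which anchors them at the synapse. Glra2, the alpha subunit of immature neurons, was at 6.75 and 7.004 in E19 and 9.54 and 9.86 in E16. The stages did not overlap, and the ratios were -2.79 and -2.86 (-2.82 ± 0.05), or 7.08-fold lower in E19, with E19 well above background on 1 of 2 arrays. Glra1, the main alpha subunit of the adult spinal cord, was at 6.49 and 6.51 in E19 and 6.91 and 7.10 in E16. It was above background only in E16, with a bound of 1.42-fold, and its second probe was not detected. Glrb, the beta subunit, was at 6.28 and 6.68 in E19 and 7.10 and 7.32 in E16, above background only in E16, with a bound of 1.63-fold. Glra3 was not detected.

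**Figure D2:**
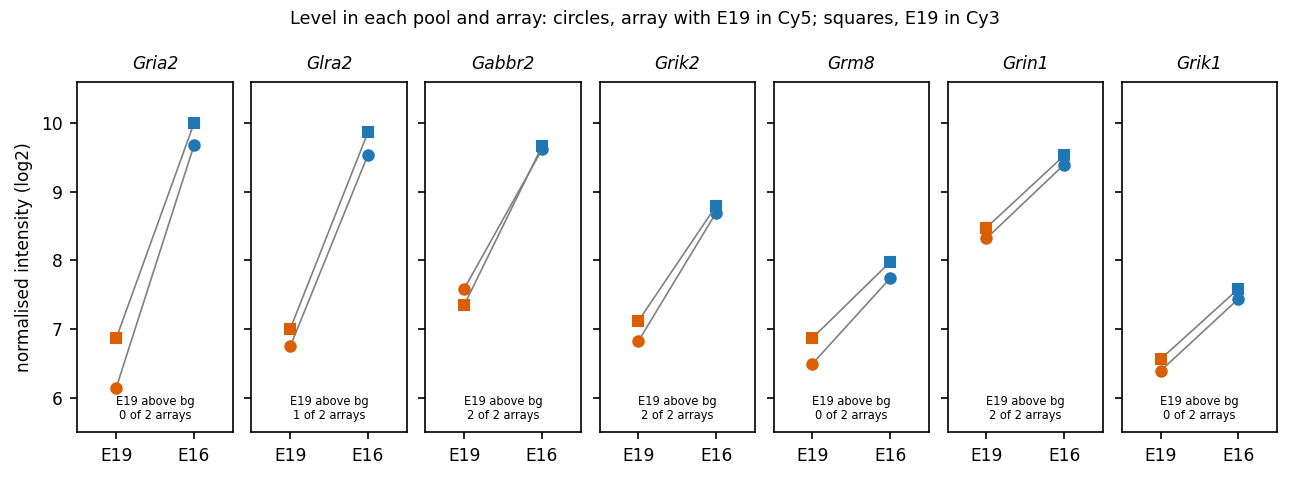
Normalised log2 intensity in E19 (orange) and E16 (blue) of 7 of the receptor genes called higher in E16, with circles for the array with E19 in Cy5 and squares for the array with E19 in Cy3. In each gene both E16 values lie above both E19 values, which follows largely from the call. For 3 of these genes E19 was well above background on 0 of 2 arrays.

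Compared by kind of transmitter, the glutamate receptors had 5 of 18 detected genes called higher in E16 and a median of -0.79, and the GABA and glycine receptors 4 of 16 and a median of -0.62. Of these, 6 of the 18 and 8 of the 16 lacked full E19 detection and passed only through their E16 signal, which favours values below 0. Among the 12 and 8 measured in both pools, 0 were called higher in E19 and 2 and 1 higher in E16, the medians were -0.36 and -0.14, and 11 and 4 were below 0 on both arrays. By mechanism, 7 of 26 detected channel subunits and 2 of 8 receptors coupled to G proteins were called, with medians of -0.79 and -0.46. Measured in both pools were 15 and 5, of which 2 and 1 were called, with medians of -0.26 and -0.38. Over all detected genes 3.75% were called higher in E16 and 4.14% higher in E19. Among all genes measured in both pools the shares were 3.43% and 4.23%. The called genes thus came from both transmitter groups and both mechanisms. Counts per class were small, and no class was set against another by a test.

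Repeated spots show how closely a ratio was measured within an array. The SD over the 10 Grin1 spots was 0.04 with E19 in Cy5 and 0.05 with the dyes exchanged. The probes on several spots for Gria1, Grin2a, Grin2b and Grm5, which were not detected, centred near 0. For probes this dim, such values set no limit on the change. Of the 12 members on more than 1 probe, Gria2 and Grm8 had both probes past 2-fold on both arrays, while Gabbr1 had probes at -0.49 and -0.10.

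**Figure D3:**
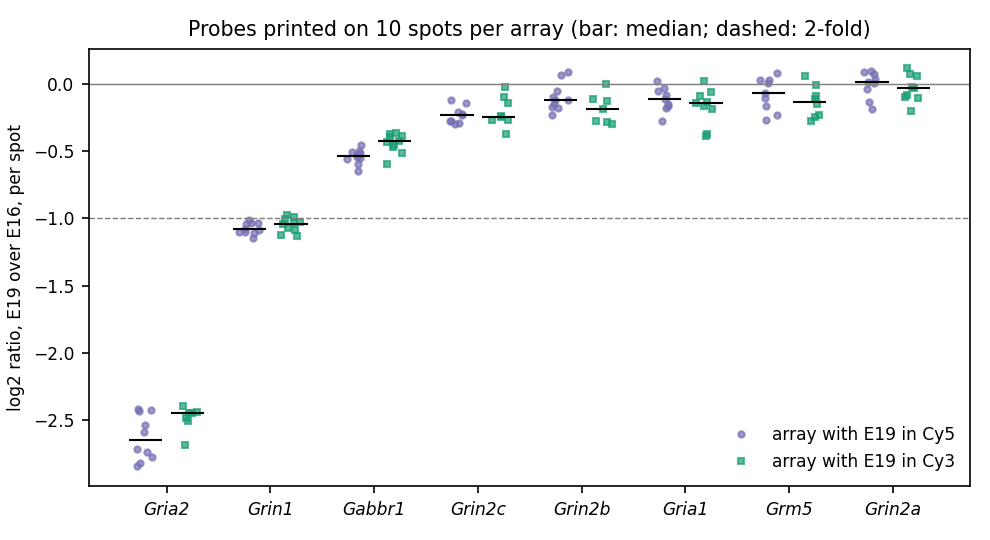
Log2 ratio of E19 over E16 on each kept spot of 8 receptor probes printed on 10 spots per array, in purple for the array with E19 in Cy5 and green for the array with E19 in Cy3, with the median as a bar. All kept Gria2 spots lie below the dashed 2-fold line, and those of Grin1 lie around it.

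**Figure D4:**
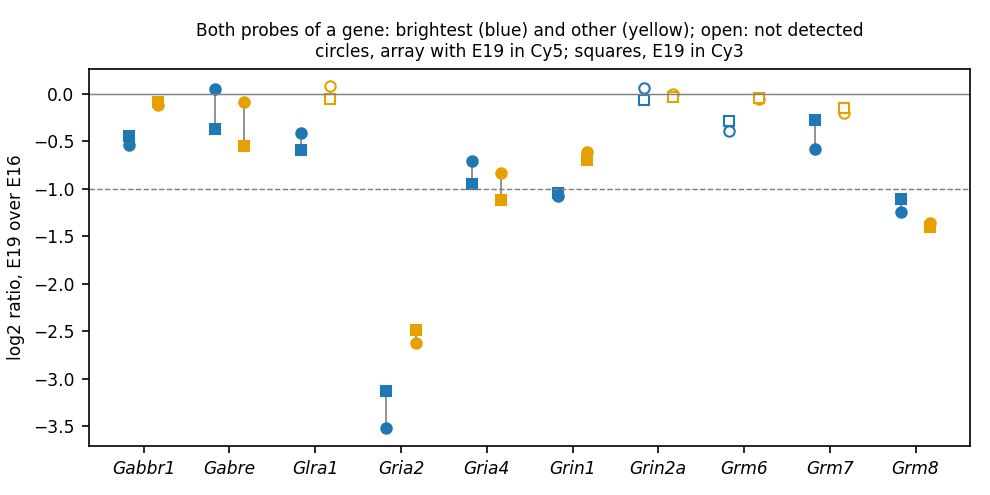
Log2 ratio of E19 over E16 of 10 receptor genes with more than 1 probe, with the brightest detected probe in blue and the other in yellow, circles for the array with E19 in Cy5 and squares for the other array, and open symbols for probes not detected. Gria2 and Grm8 have both probes below the dashed 2-fold line on both arrays.

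Several receptor genes lie next to each other in the rat genome, and their values are given side by side. Gria2 and Glrb are adjacent, both above background only in E16, and only bounds hold, at least 9.42-fold and at least 1.63-fold lower in E19. The run of Gabrb1, Gabra4, Gabra2 and Gabrg1, of which Gabra2 is not analysed here, held no called gene, nor did that of Gabre, Gabra3 and Gabrq or the pair of Gabrr2 and Gabrr1.

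Genes that work with the receptors were read from 4 lists. Beside these counts and those of the marker lists below, 4.14% of all detected genes were called higher in E19 and 3.75% higher in E16. Among glutamate receptor partners, 28 of 33 genes with a probe were detected, 0 were called higher in E19 and 4 higher in E16, and the median was -0.42. The 4 were the kainate receptor auxiliary gene Neto2 (-2.07), the scaffold genes Shank2 (-2.08) and Dlgap1 (-1.15) and the AMPA receptor auxiliary gene Cnih2 (-1.26). The scaffold gene Dlg2 had the highest ratio of that list (0.79). Of 13 detected genes for glutamate supply and uptake, 0 were called higher in E19 and 2 higher in E16, with a median of -0.28. Slc17a6, which loads glutamate into synaptic vesicles, was at 8.12 and 7.99 in E19 and 11.32 and 11.29 in E16 (-3.25 ± 0.08), with no overlap. The other called gene, the glutamate transporter Slc1a6, was at least 2.33-fold lower in E19.

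Among GABA and glycine partners, 0 of 21 detected genes were called higher in E19 and 7 higher in E16, with a median of -0.59. The 7 included the GABA transporter Slc6a13 (-1.33), the chloride exporter Slc12a5 (-2.06), the glycine transporter Slc6a5 (at least 3.58-fold lower in E19), the synaptic adhesion gene Nlgn1 (-1.62), the vesicular GABA and glycine transporter Slc32a1 (-1.32) and Gad1, which makes GABA (-1.19, E19 above background on 1 of 2 arrays). Gphn, which encodes gephyrin, the scaffold of glycine and GABA-A receptors, was at 9.89 and 10.09 in E19 and 9.91 and 9.96 in E16, and the stages overlapped. Other ligand-gated channels, those for acetylcholine, serotonin and ATP, had a median of -0.01. The count among its 17 detected genes was 0 towards E19 and 1 towards E16, the fetal muscle acetylcholine receptor subunit Chrng (-1.43).

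Many marker genes of nerve cells were also higher in E16. Of 12 neuron markers, all detected, 9 were called higher in E16. The log2 of the summed intensity of all 12 was 13.68 and 13.64 in E19 and 15.96 and 15.96 in E16. Sums below are given in the same way, over the detected genes of a list, and weigh its brightest genes most. Among sensory and autonomic neuron markers 5 of 13 were called higher in E16, with sums of 13.14 and 12.93 in E19 and 14.27 and 14.32 in E16. They included Ntrk2, Tac1, Prph and Scn9a. Among central nervous system markers 5 of the 13 detected of 16 were called higher in E16, with sums of 11.50 and 11.50 in E19 and 14.47 and 14.43 in E16. They were Fabp7 (-4.87), the forebrain transcription factor genes Neurod6 (-3.08) and Neurod2 (-1.68), Neurod1 (at least 5.20-fold lower in E19) and Pax6 (-2.12). Lhx5, Olig2 and Ptf1a of that list were not detected. Some markers lay above 0 on both arrays, though short of 2-fold. These were the neuron marker Map2 (0.96 and 0.70), the sensory and autonomic markers Th (0.44) and Pou4f1 (0.35), and Hes5 of the central nervous system list (0.40). Markers of Schwann cells, the glia of skin nerves, had 1 of 9 detected called higher in E16, with sums of 15.40 and 15.15 in E19 and 15.21 and 15.18 in E16. The part of these cell types in the receptor ratios was not tested. In pooled tissue, fewer cells of a type and less RNA per cell cannot be told apart.

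Markers of the skin itself were well above background, with 9 of 9 keratinocyte and 8 of 8 dermal fibroblast genes detected. Of these, 4 and 1 were called higher in E19 and 0 higher in E16. Melanocyte markers had 2 of 5 detected genes called higher in E19. Cartilage markers, with 5 of 7 called higher in E16, moved in the same direction as the receptor genes. The log2 of their summed intensity was 13.41 and 13.26 in E19 and 15.11 and 15.00 in E16.

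**Figure D5:**
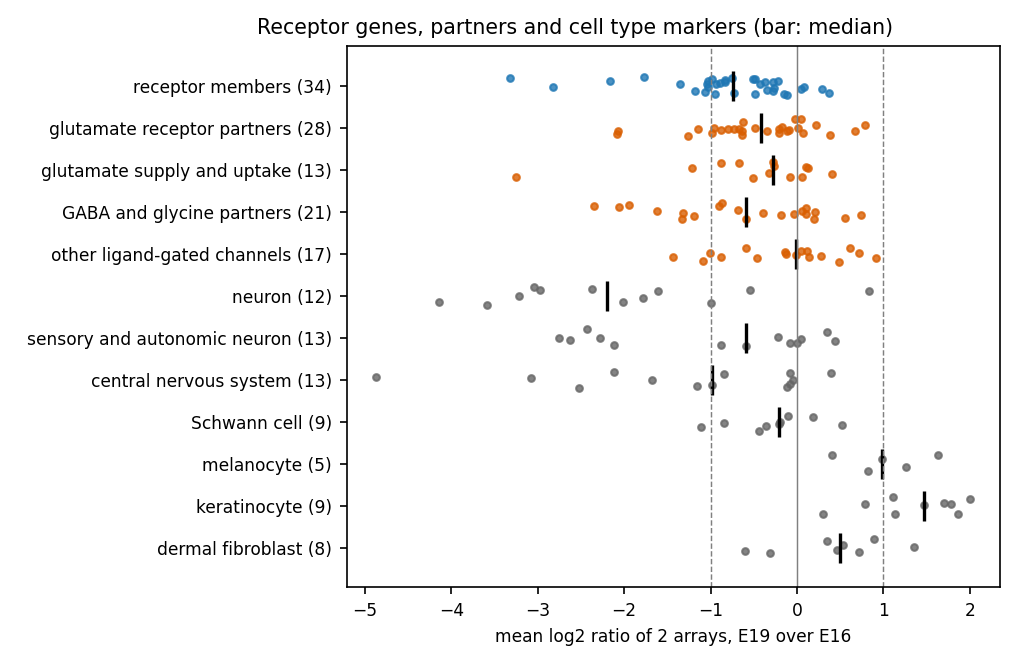
Mean log2 ratio of E19 over E16 of each detected gene among the receptors (blue), their partners and other ligand-gated channels (orange) and cell type markers (grey), with the number of detected genes beside each list and the median as a bar. The receptor median lies at -0.74, the neuron marker median at -2.19 and the keratinocyte marker median at 1.47.

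In the authors' deposited table, which combines the same 2 arrays, all 51 members were found, and 19 of the 34 detected here were at least 2-fold lower in E19. Converted to log2, the authors' deposited table gives a ratio of -5.79 for Gria2, -4.41 for Glra2 and -4.08 for Grik1, each further from 0 than the ratios above.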

How the data were processed

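RNA of both pools was amplified and labelled per the labels' protocols. Spot intensity in both channels was measured with Agilent Feature Extraction 9.5.1.1, per the file headers, and the deposited files give it without background correction beside a processed intensity. Per the file headers the same program wrote a log10 ratio and its p-value. A further table deposited by the authors holds, per sequence, a log10 ratio with a p-value. How the arrays were combined in it is not given in the sources used here. The ratio was taken as E19 over E16 from its correlations of 0.90 and 0.89 with the arrays turned that way.

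From the deposited mean intensities and local background, background was corrected with normexp (offset 50), and limma's within-array loess gave the log2 ratios (version 3.58.1). Levels per channel followed Aquantile scaling. Spots flagged as non-uniform or population outliers were left out, spots of a probe were averaged, and the brightest detected probe stood for a gene. The bounds for undetected pools used the higher of the probe's own signal and the lowest signal well above background. Members were named with values per array for those called or detected in 1 pool only, the 10 others of highest intensity and those whose arrays differed by over 1 log2 unit. Values of others are given beside a threshold or a second probe, and those were picked after their values were seen. Per channel, 71.5% to 74.3% of spots were well above background, and the number of arrays limits the precision. Of the 63 member probes, 51 were named by accession and 12 by symbol. Some members and list genes are not reported here by name. The members and lists were chosen with earlier results of these data known. Python 3.11.15 with numpy 2.4.6, pandas 2.3.3 and matplotlib 3.10.9 did the rest, and the steps were tested on simulated data.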

Additional observations from a re-analysis of the deposited data

How the results depend on the processing

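No member was called higher in E19 except Gabrq on the array with E19 in Cy5 alone, so the count without one of the arrays was 0 to 1. The 9 called higher in E16 became 17 at normexp offset 0, 19 with Feature Extraction's processed signals, 19 in the authors' deposited table, 18 at 1.5-fold, 4 at 3-fold and 3 among members detected in both pools, and 10 to 12 on a single array. The fold limits, the detection rule and the use of a single array change the count by construction. The offset of 50 is added to both channels, which draws the ratios of dim probes towards 0. For the others the cause was not tested. Median centring gave 6, with Grik1 and Grin1 among those lost, and the mean over probes 8, without Grin1. The count was 13 both without background subtraction and with centring on the 10 spike-in RNAs, whose mean ratio was 0.22. Centring on these RNAs lowers every ratio by that mean. The median of -0.74 became -1.06 at offset 0, -0.88 without background subtraction, -1.53 with processed signals, -0.73 with median centring, -0.96 with spike-in centring, -0.32 for members detected in both pools, -0.35 with no filter, -0.64 with the mean over probes, -1.40 in the authors' deposited table and -0.73 with outlier spots kept, an alternative chosen after seeing the data. On single arrays it was -0.75 to -0.74. Members detected numbered 34, against 20 with detection asked of both pools and 41 with detection in at least 1 channel of 1 array. Signs changed in 4 members under some alternatives, Gabrd, Gabre, Gabrq and Grin3b, and in 0 of the called members. Of 326 values of 26 members over the alternatives, 41 moved by over 1.5-fold. At offset 0 Gabbr2 was at -2.67, Grik2 at -2.44 and Glra2 at -3.73. With processed signals these 3 genes were at -2.96, -2.85 and -4.47, and with median centring at -2.15, -1.77 and -2.83. Each ratio compares the pools within an array, but no test over paired samples was possible because each stage is 1 pool. Signal over background limits the 16 undetected members, for which neither ratio nor bound is informative, and the 11 measured in E16 only, for which only a bound holds.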
